A study of Homo sapiens with 6 samples.

Results

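The protocadherins are the largest family within the cadherin superfamily, and they were followed here in control and HuR knockout cells of MOC2, a line from a mouse oral squamous carcinoma. Members were all rows of the count table whose symbol begins with Pcdh: 68 of 21872 rows, of which 13 belong to the alpha cluster, 22 to the beta cluster, 21 to the gamma cluster and 12 are non-clustered. HuR, the product of Elavl1, binds AU- and U-rich stretches of mRNAs and affects their stability and translation. RNA was sequenced from 3 libraries labelled control and 3 labelled knockout (titled as knockdown). Cells of both groups had received lentiviral particles with CRISPR/Cas9, either a control or one directed at HuR, and were grown in the same medium. For the loss of HuR 1 clone was picked, per the labels' protocols. The labels do not tie the libraries to different clones or cultures. The p-values therefore measure only how far these libraries differ within a group, which may be technical. The labels name human as the species, but the symbols are those of mouse genes.

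Protocadherins are transmembrane proteins that bind the same protein on a neighbouring cell. In the alpha, beta and gamma clusters each gene has its own promoter and a large variable exon that encodes the outer domains. In the alpha and gamma clusters this exon is spliced to constant exons shared by the whole cluster, while beta genes have no such constant exons. Single neurons switch on a few promoters of each cluster, a choice in which the DNA-binding protein CTCF, cohesin and DNA methylation take part, and the resulting set of proteins lets a neurite recognise its own cell. Non-clustered protocadherins stand mostly as single genes and are divided into the delta-1 and delta-2 types by their cytoplasmic motifs. Most of these genes are best known from the nervous system, and several are studied as silenced genes in carcinomas.

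Library totals lay between 16158516 and 21294330 counts, and protocadherins took 0.0232% to 0.0362% of them. In rows at 0 in control library 1 all counts were multiples of 11, for which the labels give no reason, and they were divided by 11. This touched 11 protocadherin rows: 3 alpha, 2 beta, 4 gamma and 2 non-clustered. CPM values are counts relative to the library total after scaling with edgeR's TMM factors, and they are not scaled by gene length, so levels are compared between libraries and not between genes. Knockout library 3 stood apart from the other knockout libraries (Pearson's r of log2 CPM across genes 0.924 and 0.931, against 0.978 between knockout libraries 1 and 2; genes are not independent replicates). Elavl1 mRNA was at 107, 120 and 117 CPM in control, against 116, 114 and 105 CPM in knockout (adjusted p = 0.82 by edgeR), so its level does not show the labelled loss, and the groups are called here by their labels. Most markers of the labelled epithelial identity were lower in knockout. Over 16 epithelial markers the summed level was 12148 to 15028 CPM in control, against 5954 to 8808 CPM in knockout. Of the 15 tested, 10 were lower and 1 higher, where 15.4% and 20.3% of all genes tested were. Among them Epcam fell 14.7-fold, Cdh1 13.4-fold, Pkp1 6.73-fold and Krt18 3.82-fold (edgeR, n = 3 each). The 1 that rose was Trp63, a divided row, at 0 CPM in every control library and 1.53, 4.51 and 15.8 CPM in knockout. Krt19 and Krt6a had higher means in knockout but did not pass. Krt5, not tested, was at most 0.0491 CPM in control and higher in every knockout library.

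The groups of protocadherins did not move together. Summed over its 22 genes, the beta cluster was 2.74 times higher in knockout than in control. The delta-1 genes, summed, were 2.48 times lower, and the gamma C and delta-2 sums overlapped between the groups. The beta cluster and the non-clustered delta-1 genes thus differed in direction, while the alpha and gamma sums overlapped between control and knockout. Inside the gamma cluster, single genes differed in direction too. With RNA from whole cultures, fewer cells that express a gene and less of its RNA per cell cannot be told apart. Of the 68 members, 60 had a count in at least 1 library and 21 passed the filter on low counts. Among these, 7 rose, 3 fell and 11 did not pass at an adjusted p of 0.05 by edgeR's quasi-likelihood test over all 12293 genes tested. That is 47.6% changed, where 35.7% of all genes tested changed (20.3% higher and 15.4% lower). Of the 21, 9 passed the filter on low counts only through their knockout libraries and 2 only through their control libraries, so their differences are partly set by the filter and the count is not read as a property of the family. The groups did not overlap in 16 of the 21, where they did not in 57.6% of all genes tested. Without control library 1, 2 or 3 the number that rose was 3, 3 and 1, and without knockout library 3 the number that fell was 6.

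**Figure D1:**
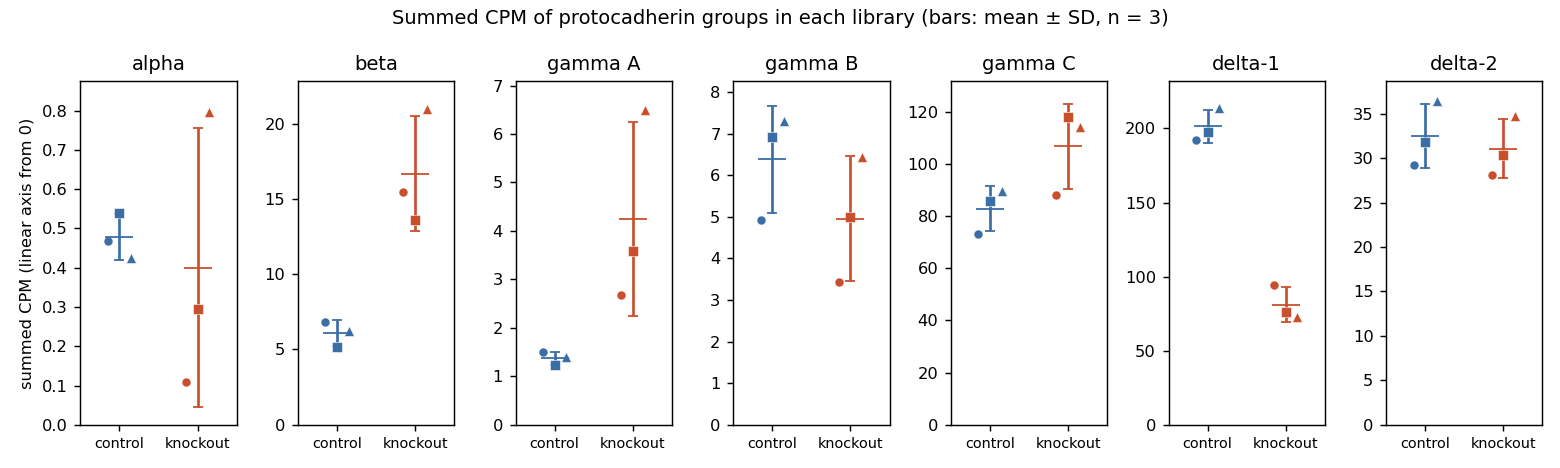
Summed CPM of 7 groups of protocadherins (linear axes from 0) in the control (blue) and knockout (red) libraries, with circles for library 1, squares for library 2 and triangles for library 3 of each group and bars for the mean ± SD. The groups do not overlap for beta and gamma A, which are higher in knockout (gamma A mostly through Pcdhga10 and Pcdhga6), or for delta-1, which is lower.

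Beta protocadherins were higher in knockout across most of the cluster. The summed level was 6.83, 5.16 and 6.26 CPM in control libraries 1, 2 and 3 and 15.5, 13.6 and 20.9 CPM in knockout libraries 1, 2 and 3. Every knockout library was thus above every control library, and without knockout library 3 the ratio of the means was 2.39. These sums rest on 103 to 146 counts per control library and 277 to 342 per knockout library. All 22 genes had a count somewhere, and 20 of them had a higher mean in knockout, where 53.5% of all genes with a count did. For 14 the groups did not overlap with knockout higher (25.2% of all genes with a count), and for 1, Pcdhb1, with knockout lower (23% of all genes with a count). The number of genes with a higher mean was 19 or 20 when any 1 library was left out. Pcdhb4 and Pcdhb13 are divided rows, which are at 0 in control library 1 by definition, and without them the sums were 6.05 ± 0.873 and 16.1 ± 3.37 CPM (SD, n = 3 each). With the values as deposited the knockout mean was 21.5 CPM.

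Beta genes are the intronless members of the clusters, and each count can be given to 1 gene only as far as the near-identical copies allow, which the counting may have split. Of the 9 tested, 4 rose and 5 did not pass, and 7 of the 9 had entered the test through the knockout libraries alone. Over all genes tested, 20.3% rose and 35.7% changed. Pcdhb14 was at 0.468, 0.295 and 0.122 CPM in control, against 1.63, 1.32 and 2.69 CPM in knockout, a 6.10-fold rise (log2 fold change 2.61, SE 0.547, adjusted p = 0.0122 by edgeR). Pcdhb19 was at 0.234, 0.393 and 0.243 CPM in control, against 1.63, 1.27 and 1.10 CPM in knockout, a 4.52-fold rise (log2 fold change 2.18, SE 0.408, adjusted p = 0.00815 by edgeR). In both genes every knockout library was above every control library. Pcdhb14 lost its call when control library 2 or 3 was left out (adjusted p = 0.0619 and 0.0508), and Pcdhb19 without control library 3 (0.0537).

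Pcdhb20 and Pcdhb21 lay close to the threshold. Pcdhb20 was at 0.376 ± 0.23 CPM in control, against 1.26 ± 0.303 CPM in knockout (3.35-fold, adjusted p = 0.0445 by edgeR). Pcdhb21 was at 0.198 ± 0.173 CPM in control, against 0.807 ± 0.17 CPM in knockout (3.89-fold, adjusted p = 0.0487 by edgeR). Their groups did not overlap, but the call of Pcdhb20 was lost under 9 and that of Pcdhb21 under 10 of 14 alternative settings, and the log2 fold change of Pcdhb21 went from 1.96 to 2.85 without control library 2.

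The beta genes with most counts in control did not pass. Pcdhb17 was at 1.64, 0.688 and 1.03 CPM in control, against 2.23, 1.72 and 3.37 CPM in knockout (log2 fold change 1.11, 95% interval 0.04 to 2.18, adjusted p = 0.0976 by edgeR). Pcdhb5 was at 1.08, 0.638 and 1.40 CPM in control, against 1.80, 2.11 and 1.90 CPM in knockout (log2 fold change 0.90, 95% interval 0.01 to 1.80, adjusted p = 0.105 by edgeR). The groups did not overlap in either gene, and both had entered the test through control and knockout alike. Pcdhb2, Pcdhb3 and Pcdhb22 differed by 1.16, 0.96 and 0.81 on the log2 scale (adjusted p = 0.166, 0.126 and 0.203 by edgeR), and only Pcdhb22 overlapped between the groups.

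Of the 13 beta genes with too few counts to test, the best counted were Pcdhb18, Pcdhb16 and Pcdhb7. Over the group, Pcdhb18 had 20 counts in control and 45 in knockout, 2.38 times higher (95% counting interval 1.38 to 4.25). Pcdhb16 had 12 and 42 counts, 3.70 times higher (1.91 to 7.71), and Pcdhb7 15 and 32, 2.25 times higher (1.19 to 4.48). These intervals cover counting error only. Control and knockout overlapped in Pcdhb18 and Pcdhb7, but not in Pcdhb16. Against these, Pcdhb1 had 6 counts in control and none in knockout, at least 1.89-fold lower against a floor of 3 counts over the group; Pcdhb1 and the next gene were picked after their values were seen. Pcdhb13, with no count in control and 17 in knockout after division, was at least 5.99-fold higher on the same basis. Its CPM in knockout libraries 1, 2 and 3 were 0.0545, 0.147 and 0.796, so library 3 held most of them.

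The rise of the beta sum was not carried by 1 gene. Pcdhb17 held 17.9% ± 5.46 of the beta counts in control and 14.4% ± 1.72 in knockout, Pcdhb5 16.8% ± 5.06 and 12.1% ± 3.25, and Pcdhb14 4.83% ± 2.57 and 11.1% ± 1.62 (SD, n = 3 each; a share of counts, not scaled by length). Of these only Pcdhb14 had shares that did not overlap between the groups. With at least 10 counts as the limit, 5, 3 and 4 beta genes were seen in the control libraries and 11, 12 and 14 in the knockout libraries, at like library totals. With at least 1 count the numbers were 20, 17 and 16 in control and 19, 21 and 20 in knockout.

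**Figure D2:**
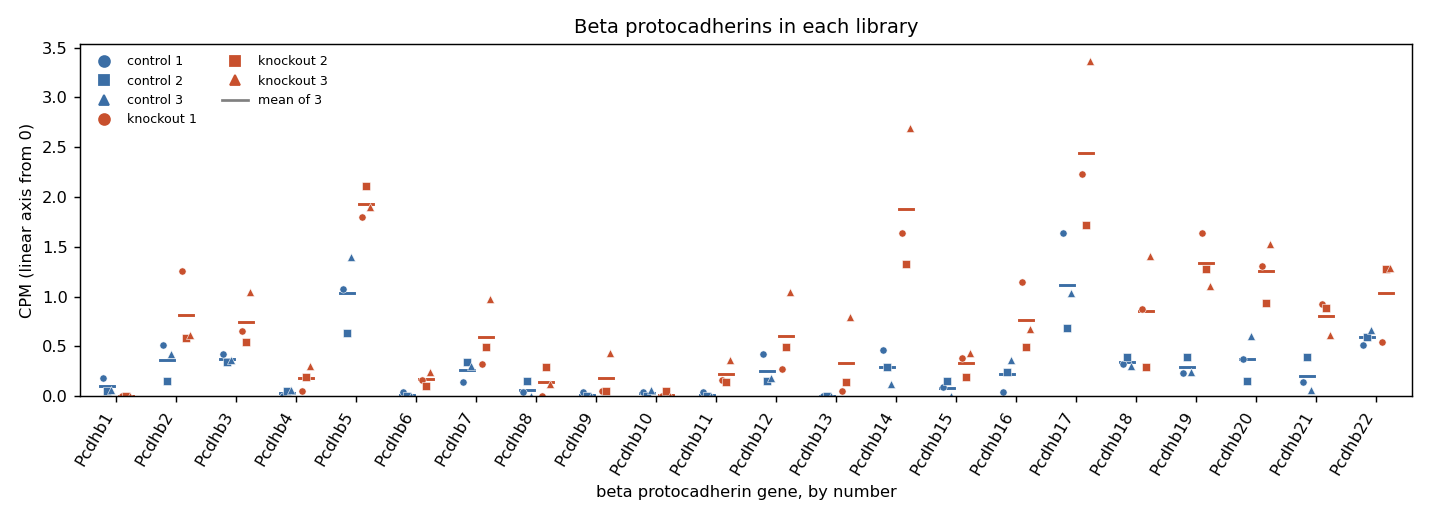
CPM (linear axis from 0) of the 22 beta protocadherins by gene number, for each control (blue) and knockout (red) library, with a line at each mean of 3. In 20 of the 22 genes the knockout mean is the higher one, with Pcdhb1 and Pcdhb10 the exceptions.

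In the gamma cluster, genes were called in both directions. Pcdhgb7, a B-type gene, was at 1.92, 3.73 and 2.92 CPM in control, against 0.272, 0.245 and 0 CPM in knockout. It fell 15.5-fold (log2 fold change -3.95, SE 0.733, adjusted p = 0.00807 by edgeR), from 165 counts over the control libraries to 10 over the knockout libraries, and it had entered the test only through its control libraries. Pcdhga10, an A-type gene, was at 0.140, 0.147 and 0.122 CPM in control, against 1.14, 1.37 and 1.65 CPM in knockout. It rose 9.70-fold (log2 fold change 3.28, SE 0.409, adjusted p = 0.00195 by edgeR), from 8 counts to 76. Pcdhga10 and Pcdhgb7 are direct neighbours in the order of the human genes of the same names (places 16 and 17 of the gamma genes in RefSeq, GRCh38.p14), which is used here for order only. Both calls held under all 14 alternative settings, with a log2 fold change of Pcdhgb7 between -4.37 and -3.43 and of Pcdhga10 between 3.10 and 3.40.

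A further A-type gene, Pcdhga6, was at 0.281, 0.295 and 0.0608 CPM in control, against 0.763, 1.08 and 2.51 CPM in knockout, a 6.42-fold rise (adjusted p = 0.0258 by edgeR). Knockout library 3 was highest, and without it the log2 fold change went from 2.68 to 2.04 with the call kept (adjusted p = 0.0267). It did not pass when control library 1, 2 or 3 was left out (adjusted p = 0.0749, 0.078 and 0.0872) or with the replicate number as a block (0.0711). Both A-type genes had entered the test only through their knockout libraries, so that the filter partly sets the differences of all 3 gamma genes called. Summed over its 12 genes the A type was at 1.498, 1.23 and 1.40 CPM in control, against 2.67, 3.58 and 6.49 CPM in knockout, 3.09 times higher (2.27 times without knockout library 3). Pcdhga10 and Pcdhga6 made up most of this rise, so it is not read as a property of the whole A type. Their means were 0.136 and 0.212 CPM in control, against 1.39 and 1.45 CPM in knockout. In 8 of the 12 genes the knockout mean was the higher one, and 7 to 9 when any 1 library was left out, where 53.5% of all genes with a count had the higher mean in knockout (51.2% to 53.7% with 1 library left out).

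Most other gamma A and B genes had too few counts to test. Pcdhga8 had 21 counts in control and 1 in knockout, 19.9 times lower (95% counting interval 3.20 to 822), and its groups did not overlap. The next gene in the human order, Pcdhgb5, picked after its values were seen, had 11 counts in control and 1 in knockout, 10.4 times lower (1.51 to 448). Pcdhga4, with 11 and 24 counts, was 2.30 times higher in knockout (1.09 to 5.21), with groups that overlapped. Pcdhgb2, with 16 and 25 counts, was 1.65 times higher (0.847 to 3.31), with groups that did not. Genes with fewer counts in knockout were thus found among both the A and the B type. Of the 15 gamma genes with a count that were not tested, the groups did not overlap in 5, where 19.7% of all such genes did not overlap.

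The remaining B-type gene tested did not pass. Pcdhgb1 was at 2.48, 2.85 and 3.65 CPM in control, against 2.56, 4.12 and 5.70 CPM in knockout (log2 fold change 0.46, 95% interval -0.41 to 1.34, adjusted p = 0.358 by edgeR), and its groups overlapped. As a result the summed B type, 6.38 ± 1.28 CPM in control, against 4.95 ± 1.499 CPM in knockout, overlapped between the groups. Without Pcdhgb7 it was 3.52 ± 0.746 and 4.78 ± 1.64 CPM (SD, n = 3 each).

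The C-type gene Pcdhgc3, which is known to be used in many cell types outside neurons, held most gamma counts in every library. Its level was 72.7, 85.5 and 89.2 CPM in control, against 88.0, 117 and 114 CPM in knockout (log2 fold change 0.37, SE 0.156, 95% interval -0.00416 to 0.74, adjusted p = 0.111 by edgeR). Knockout library 1 lay within the control range, and without it Pcdhgc3 passed (log2 fold change 0.49, adjusted p = 0.045). Pcdhgc3 took 90.7% to 91.5% of the gamma counts in control libraries and 89.6% to 93.4% in knockout libraries, and the ranges overlapped. This share depends on how reads from the shared constant exons were assigned, for which the sources used here give no rule. The other C-type genes stayed low: Pcdhgc4 had 9 counts in control and 7 in knockout, and Pcdhgc5 12 and 8, both picked after their values were seen.

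Outside Pcdhgc3, the gamma total was 8.12 ± 1.25 CPM in control, against 9.47 ± 3.50 CPM in knockout, but its make-up differed. Pcdhgb7 held 28.5%, 44.2% and 31.8% of these counts in control and 4.39%, 2.72% and 0% in knockout. Pcdhga10 went the other way, from 2.08%, 1.74% and 1.32% to 18.4%, 15.2% and 12.6%, and Pcdhga6 from 4.17%, 3.49% and 0.662% to 12.3%, 11.96% and 19.1%. Pcdhgb1 held 36.8% ± 3.01 in control and 43.4% ± 2.21 in knockout. The shares of the first 3 genes did not overlap between the groups, and each rests on 114 to 215 counts per library.

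**Figure D3:**
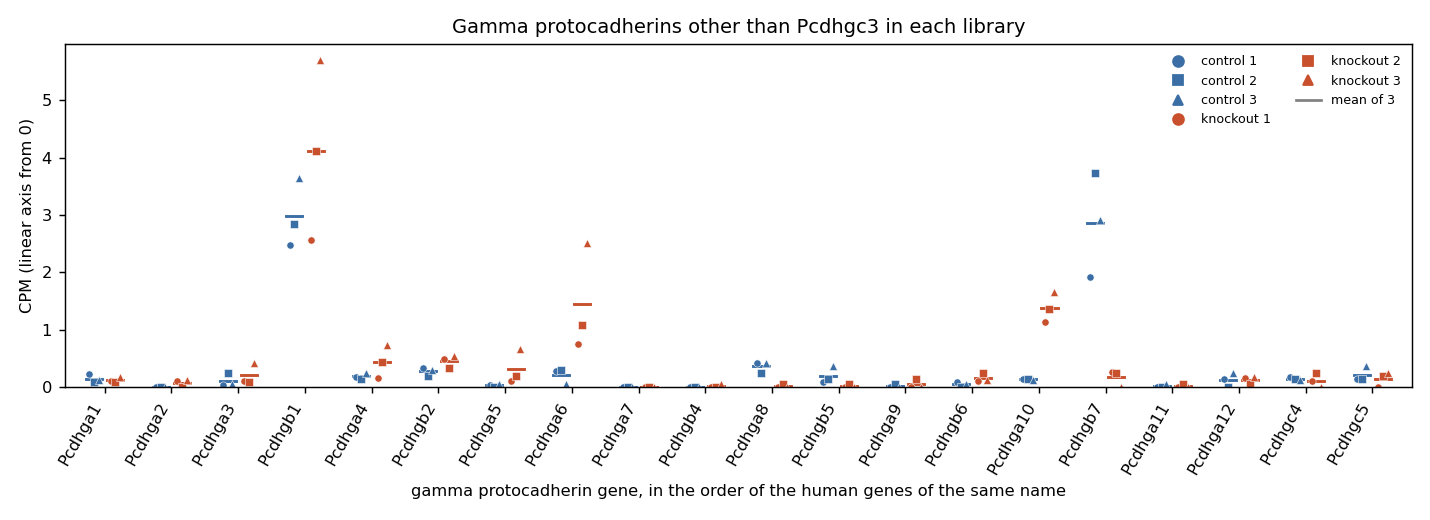
CPM (linear axis from 0) of the gamma protocadherins other than Pcdhgc3, in the order of the human genes of the same name, for each control (blue) and knockout (red) library with a line at each mean of 3. Pcdhgb7 stands higher in every control library than in any knockout library, and its neighbour Pcdhga10 the other way round.

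The alpha cluster was close to silent in every library. Of its 13 genes 6 had no count and none of the other 7 had enough counts to test. The summed level was 0.468, 0.540 and 0.425 CPM in control, against 0.109, 0.294 and 0.796 CPM in knockout, from 2 to 13 counts per library, and the groups overlapped. Pcdha11 had 14 counts in control and 4 in knockout, 3.31 times lower (95% counting interval 1.04 to 13.8). The C-type gene Pcdhac2 had 9 counts in each group, 8 of the knockout counts being in library 3, and Pcdha8 had 3 and 4. A difference in these genes was not detectable at this depth, apart from the counting interval of Pcdha11, which leaves out equal levels but ignores the spread between libraries. With the values as deposited the alpha means were 0.634 CPM in control, against 0.935 CPM in knockout.

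Among the non-clustered genes the delta-1 type was lower in knockout. Pcdh1, a delta-1 protocadherin known for its expression in airway and skin epithelium, was at 94.96, 90.0 and 94.2 CPM in control, against 17.4, 6.17 and 13.4 CPM in knockout. It fell 7.56-fold (log2 fold change -2.92, SE 0.365, adjusted p = 0.00202 by edgeR), from 5412 counts to 664, and the call held under all 14 alternative settings. Pcdh7 was at 84.0, 87.8 and 98.8 CPM in control, against 70.3, 66.0 and 43.2 CPM in knockout. Its groups did not overlap, yet it did not pass (log2 fold change -0.59, 95% interval -1.07 to -0.11, adjusted p = 0.06 by edgeR). It passed without knockout library 1 or 3 (adjusted p = 0.049 and 0.0145) and with DESeq2 (adjusted p = 0.0226).

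Pcdh9 depended on 1 library. It was at 13.6, 19.99 and 20.7 CPM in control, against 6.65, 3.63 and 16.3 CPM in knockout, where library 3 lay within the control range (log2 fold change -1.03, adjusted p = 0.175 by edgeR). Without knockout library 3 the log2 fold change was -1.82 (adjusted p = 0.00323). Pcdh11x had no count. The summed delta-1 level was 193, 198 and 214 CPM in control, against 94.4, 75.8 and 72.9 CPM in knockout, and Pcdh1 accounts for most of the difference, with means of 93.1 and 12.3 CPM.

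Delta-2 genes went in both directions. Pcdh18, which binds the WAVE complex component Nap1, was at 8.28, 8.20 and 10.3 CPM in control, against 14.1, 14.1 and 17.8 CPM in knockout, a 1.71-fold rise (log2 fold change 0.78, SE 0.196, adjusted p = 0.0229 by edgeR). Pcdh19, the gene of an X-linked epilepsy, was at 14.4, 18.1 and 20.1 CPM in control, against 10.4, 12.8 and 7.84 CPM in knockout, a 1.69-fold fall (log2 fold change -0.76, SE 0.241, adjusted p = 0.0486 by edgeR). The groups did not overlap in either gene, but the calls were lost under 4 and 7 of 14 alternatives. For Pcdh18 these were the test against a 1.5-fold change and leaving out control library 1, 2 or 3 (adjusted p = 0.0891, 0.112 and 0.0575). For Pcdh19 they included leaving out any control library (0.0686, 0.135 and 0.157) or knockout library 1 (0.0925), the values as deposited (0.0502) and the replicate block (0.0827).

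Pcdh10, often studied as a silenced gene in carcinomas, was at 3.93, 2.11 and 2.98 CPM in control, against 1.36, 1.13 and 0.184 CPM in knockout. The groups did not overlap, but the spread among knockout libraries was wide (log2 fold change -1.73, 95% interval -3.26 to -0.20, adjusted p = 0.0773 by edgeR). It passed without knockout library 3 (log2 fold change -1.27, adjusted p = 0.0304) and with DESeq2 (adjusted p = 0.0292). Pcdh17 was at 2.57, 3.39 and 2.98 CPM in control, against 2.23, 2.30 and 8.45 CPM in knockout (adjusted p = 0.497 by edgeR). Its mean was higher in knockout through library 3 alone, without which the log2 fold change went from 0.53 to -0.39 (adjusted p = 0.336). Pcdh8 had no count in control and 9 in knockout after division by 11, of which 8 were in library 3, at least 3.17-fold higher against the floor of 3 counts.

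The other non-clustered genes were rare and had no count in knockout. Pcdh15, known from the tip links of hair cells, had 14 counts in control (0.234, 0.196 and 0.304 CPM) and was at least 4.42-fold lower against the floor of 3 counts over the group. Pcdh20 had 7 counts in control libraries 1 and 3, at least 2.21-fold lower on the same basis. Without the filter on low counts, Pcdh15 and the gamma gene Pcdhga8 were called lower by edgeR (adjusted p = 0.0291 and 0.0244). The endothelial protocadherin Pcdh12 had 3 counts, all in control library 2 and obtained after division, and allows no fold.

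**Figure D4:**
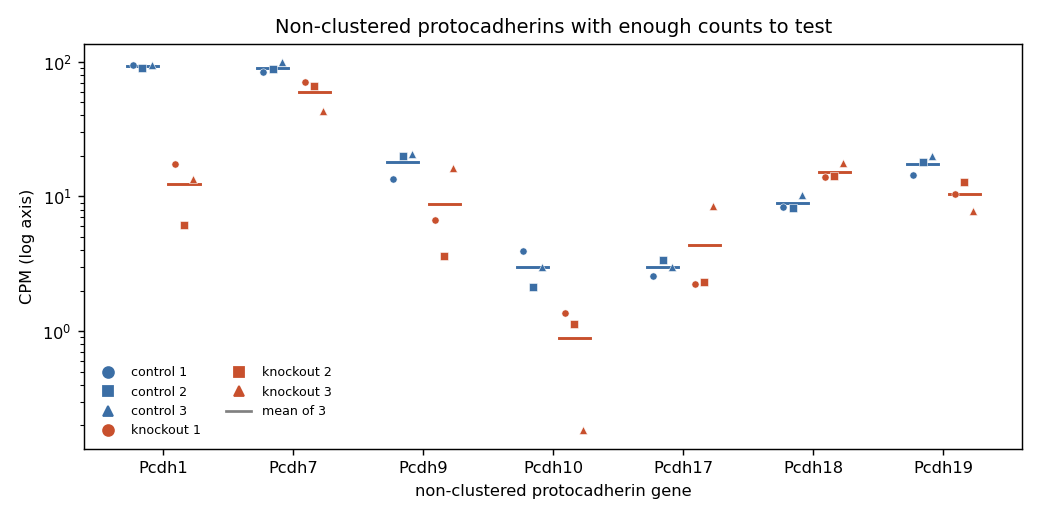
CPM (log axis) of the 7 non-clustered protocadherins that were tested, for each control (blue) and knockout (red) library with a line at each mean of 3. Pcdh1 is separated from control by the widest gap, while knockout library 3 lies apart from the other knockout libraries in Pcdh9, Pcdh10 and Pcdh17.

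**Figure D5:**
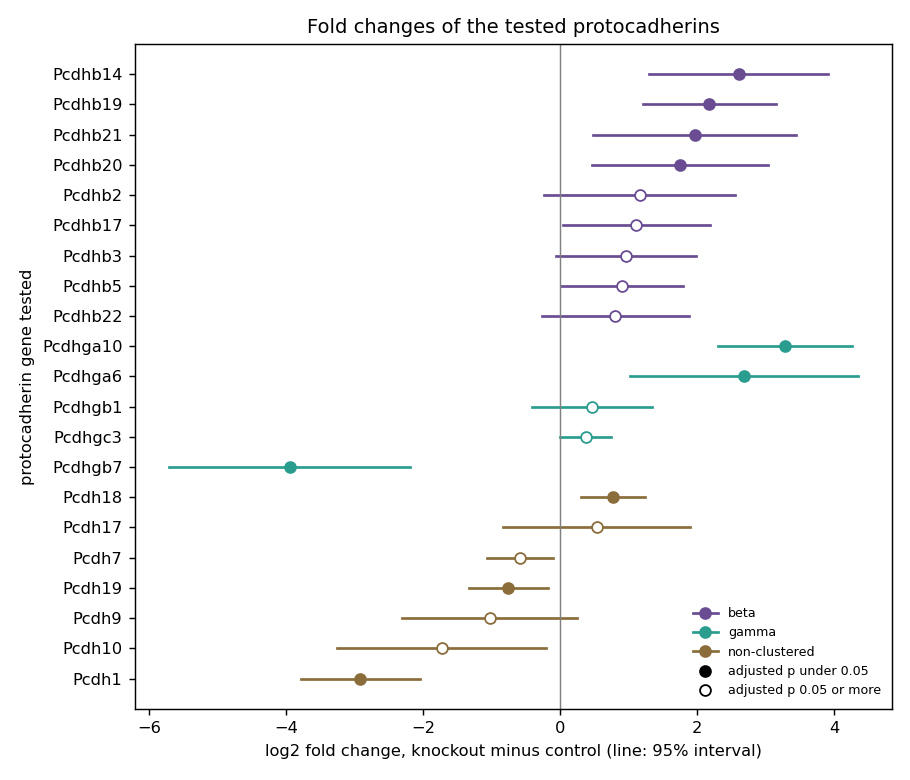
Log2 fold change, knockout minus control, of the 21 tested protocadherins with 95% intervals from edgeR, filled where the adjusted p was under 0.05. All 9 beta genes lie above 0, whereas gamma and non-clustered genes lie on both sides, from -3.95 for Pcdhgb7 to 3.28 for Pcdhga10.

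The plot of fold changes shows this split of the tested genes by cluster. The position of the beta genes above 0 is in part set by the filter, as 7 of the 9 had entered through the knockout libraries.

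A general list of regulators of promoter choice and silencing was followed next, and their action on protocadherins was not tested. Of 28 regulators of promoter choice and silencing tested, 1 rose, 4 fell and 23 did not pass, with a median log2 fold change of -0.09 against 0.03 over all genes tested, of which 35.7% changed. Tet2, an enzyme that oxidises 5-methylcytosine in DNA, rose 4.80-fold from 10.1 ± 1.73 to 48.5 ± 13.3 CPM (adjusted p = 0.00122 by edgeR). Dnmt3b, a DNA methyltransferase known to methylate clustered protocadherin promoters, was at 7.11, 6.48 and 6.99 CPM in control, against 3.11, 1.08 and 1.16 CPM in knockout. It fell 3.84-fold (adjusted p = 0.018 by edgeR; 0.0605, 0.0566 and 0.0632 without control library 1, 2 or 3), and its log2 fold change went from -1.94 to -2.61 without knockout library 1. Smchd1, a chromatin protein that silences the cluster, fell 1.37-fold (adjusted p = 0.0272 by edgeR), a call not followed under the alternative settings. The cohesin release factors Wapl and Pds5a fell 1.35-fold and 1.56-fold, calls that were lost when any 1 control library was left out (adjusted p 0.0518 to 0.0874 for Wapl and 0.0513 to 0.0802 for Pds5a). Ctcf itself was at 109 ± 6.06 CPM in control, against 94.6 ± 17.3 CPM in knockout (adjusted p = 0.345 by edgeR).

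Of 24 partners in signalling and cleavage listed, 22 were tested, of which 4 rose, 1 fell and 17 did not pass. Over all genes tested, 35.7% changed, and the median log2 fold change was 0.03 against -0.07 in this list. Adam10, the protease that sheds the outer part of gamma protocadherins, was at 81.3, 82.9 and 85.1 CPM in control, against 177, 220 and 235 CPM in knockout, a 2.54-fold rise (adjusted p = 0.00111 by edgeR). The gamma-secretase subunit genes Psenen and Ncstn, whose complex makes the following cut, were 1.37-fold and 1.33-fold higher (adjusted p = 0.0311 and 0.0465). Taok2, a kinase in the pathway of Pcdh8, rose 1.51-fold, and Ctnnb1, which encodes beta-catenin, fell 1.55-fold (adjusted p = 0.0183 and 0.015). The calls of Psenen, Taok2 and Ctnnb1 were lost when any 1 control library was left out (adjusted p 0.0575 to 0.155). The call of Ncstn was not followed under the alternative settings.

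Of 20 other atypical cadherins and their partners 8 were tested, of which 2 rose, 3 fell and 3 did not pass. Over all genes tested, 20.3% rose and 15.4% fell, and the median log2 fold change was 0.03 against -0.80 in this list. Celsr1, a planar polarity cadherin, fell 6.37-fold from 37.0 ± 5.02 to 5.80 ± 0.563 CPM, and Fat1, a giant cadherin often mutated in squamous carcinoma, fell 3.80-fold from 616 ± 85.4 to 162 ± 63.6 CPM (adjusted p = 0.000327 and 0.00446 by edgeR). Cdh13, a cadherin anchored by a lipid, was at 57.0, 50.7 and 55.5 CPM in control, against 284, 416 and 1557 CPM in knockout. Its log2 fold change was 3.79, and 2.69 without knockout library 3. Fjx1 fell 2.95-fold, and did not pass when control library 1 or 3 was left out (adjusted p = 0.052 and 0.0556).

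Markers of other cell types differed between the groups too, and their part in the protocadherin results was not tested. Over all genes tested, 20.3% rose and 15.4% fell. Over 14 fibroblast markers the summed level was 5.11 to 13.4 CPM in control, against 3794 to 7879 CPM in knockout, with 7 of 8 tested higher (Col3a1 309-fold, for example). Of these 7, Col6a2, Col6a3, Mgp and Pdgfrb had passed the filter on low counts only through knockout, which partly sets their differences. Mgp is also a divided row. Lum had no count and Dcn reached at most 0.796 CPM. Over 12 endothelial markers the summed level was 21.1 to 34.5 CPM in control, against 180 to 271 CPM in knockout. Most of this was Flt1, at 26.2, 14.8 and 27.7 CPM in control, against 208, 163 and 259 CPM in knockout. Of 4 tested, 3 were higher (Flt1 9.17-fold, Plvap 11.2-fold and Eng 2.49-fold, the last lost without control library 1, 2 or 3 at adjusted p 0.0577, 0.0706 and 0.0646). Plvap had passed the filter on low counts only through knockout. Cdh5 stayed at or under 0.304 CPM. Among untested markers, Cdh5 and Kdr had lower means in knockout (0.262 to 0.0776 and 0.232 to 0.069 CPM). Vwf and Sox18, both divided rows, had higher means (0 to 0.515 and 0.0164 to 0.486 CPM). Neuronal markers, relevant because neurons use most clustered genes, summed to 87.0 to 112 CPM in control, against 109 to 155 CPM in knockout, with 3 of 8 tested higher and 3 lower. Of these, Ncam1 rose 11.1-fold, from a mean of 8.06 to 89.5 CPM, the largest rise within this sum. Syt1 and Syp rose 5.58-fold and 3.23-fold, but had passed the filter on low counts only through knockout. Gap43, Stmn2 and Map2 fell 18.5-fold, 42.1-fold and 5.60-fold, with larger falls of Gap43 and Stmn2 (log2 fold change -5.27 and -6.77) without knockout library 1. The calls of Syt1 and Syp were not followed under the alternative settings. The neuronal defining markers Dcx and Rbfox3 were at 0 in every library but knockout library 3, where Rbfox3 was at 0.0612 CPM.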

How the data were processed

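The authors deposited whole-number counts per gene symbol for 6 libraries. Per the submitters' processing notes, STAR 2.7.1a, featureCounts and hg38 were named, with no role stated. Annotation, strand setting and the handling of reads shared by several genes were not given in the sources used here. Libraries were grouped by title, through the library names in the descriptions. In 1704 rows at 0 in control library 1 every count was a multiple of 11; they were divided by 11. Counts were analysed over the whole table with edgeR 4.0.16 in R 4.3.3 (filterByExpr, about 0.52 CPM in at least 3 libraries; TMM; robust quasi-likelihood test; Benjamini-Hochberg adjustment over 12293 genes; threshold 0.05). Standard errors were the log2 fold change divided by the square root of F. Untested genes are given as ratios of pooled counts with exact 95% intervals, or as bounds against 3 counts over a group. Alternatives were the deposited values, other filters, scalings and tests (DESeq2 1.42.0, limma-voom 3.58.1), the replicate number as a block, and leaving out each library. Every pair of libraries within a group differed by more than sampling noise. The procedure was run on simulated data with changes planted only in better counted genes. It therefore does not cover the low counts of the called clustered protocadherins. The members and gene lists were chosen with earlier results of these data known. Named are all tested protocadherins, the 3 best counted untested ones per cluster, and up to 4 called members of each list with the smallest p. Pcdhb4, Pcdhb10, Pcdh11x, Pcdh12 and those marked in the text were picked after their values were seen. So were Smchd1, Ncstn, Ctcf, Lum, Dcn, Col6a3, Pdgfrb, Cdh5, Kdr, Vwf, Sox18, Syt1, Syp, Dcx, Rbfox3, Trp63, Krt5, Krt19 and Krt6a.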

Additional observations from a re-analysis of the deposited data

How the results depend on the processing

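With 3 libraries per group and few counts for most clustered genes, the calls rest on small numbers; those of Pcdh1, Pcdhgb7 and Pcdhga10 held in all 14 alternatives, but Pcdhgb7 had passed the filter on low counts only through control and Pcdhga10 only through knockout, so that the filter partly sets their differences. Leaving out 1 library moved the number of changed genes, 4392, to between 2312 and 6021, of protocadherins that rose, 7, to between 1 and 6, of those that fell, 3, to between 2 and 6, and of beta genes that rose, 4, to between 0 and 3 (edgeR; without control library 3, where none passed, 4 had an unadjusted p under 0.05). The cause was not tested, apart from the smaller number of libraries. Without the filter on low counts 60 protocadherins were tested, 5 fell and 2 beta genes rose. With DESeq2, 5 protocadherins fell. Against a 1.5-fold change 2280 genes changed, 4 protocadherins and 2 beta genes rose. As deposited, the alpha sums were 0.634 (control) and 0.935 CPM (knockout) and the beta sum in knockout 21.5 CPM, since these rows were not divided. Leaving out 1 library moved the uncalled Pcdh17 between -0.39 and 0.84 and Elavl1 between -0.0888 and 0.00615 (log2 fold change), both changing sign only without knockout library 3. The labels give both groups the numbers 1 to 3, but same-numbered libraries did not deviate together throughout (r of deviations across genes -0.05, 0.26 and 0.02). With the replicate block 5 protocadherins rose and 2 fell.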
